A study of Mus musculus with 7 samples.

Results

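The Hox genes of the mouse were examined for H3K27-Ac in tumour cells, as 38 genes in 4 clusters out of 21938 protein-coding genes annotated on chromosomes 1 to 19, X and Y. They were taken by name from a list of Hox genes, with no measured value used, and comprise 10 genes of Hoxa, 10 of Hoxb, 9 of Hoxc and 9 of Hoxd. The cells were 3 clones, labelled FVB/129P2 backcross 1, 2 and 3 and called clones 1, 2 and 3 here, which were all Cdkn2ab-/-, mutant at the locus that encodes the cell cycle inhibitors p15Ink4b, p16Ink4a and p19Arf. Its p19Arf part was inactivated in the mouse germline by an Act-Cre transgene. The clones came from independent skin tumours and were able to grow in soft agar, so that each is a selected clone in culture, and no clone with an intact Cdkn2ab locus or from normal skin was included. H3K27-Ac, an acetylated histone mark of active promoters and enhancers, was measured by ChIP-seq in 4 libraries, of which 2 belong to clone 3, beside 3 IgG control libraries of clones 1 and 3. The authors deposited 1 list of peaks per clone, in which both libraries of clone 3 are pooled.

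Hox genes encode homeodomain transcription factors that give cells their position along the body axis. Within a cluster the genes stand in the order of their paralogue numbers, low numbers being active from the head end of the trunk and high numbers towards the tail and the tips of the limbs, and adult skin fibroblasts and other cells keep a Hox pattern that reflects where in the body they came from. Genes that are off lie in chromatin repressed by Polycomb proteins, and active stretches carry H3K27-Ac, so the marked and empty parts of a cluster are read here by paralogue number.

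Printed here are the sequences of 4 promoters, that of a gene with a promoter peak in all 3 clones and those of genes with none. They are given as RefSeq promoter windows on GRCm38.p6, which run from 250 bases before to 50 bases after a gene's start, 5′ to 3′ on the gene's strand, with every CpG in capitals. Hoxa5 (chr6:52204538-52204837, minus strand, 29 CpG) had the strongest promoter peak among the Hoxa genes examined in all 3 clones. In clones 1 and 3 this peak lay within the gene and did not reach the window printed. Hoxa9 (chr6:52227321-52227620, minus strand, 4 CpG), Hoxa13 (chr6:52260831-52261130, minus strand, 45 CpG) and Hoxd13 (chr2:74667975-74668274, plus strand, 37 CpG) had no promoter peak in any clone. By ChIP reads, the strongest promoter peak of the 38 genes was that of Hoxb9 in clone 2. The last sequence is 300 bases around its summit (chr11:96271604-96271903, plus strand, 39 CpG). This stretch begins 147 bases after the start of Hoxb9 and lies within its first exon, in coding sequence.
Hoxa5: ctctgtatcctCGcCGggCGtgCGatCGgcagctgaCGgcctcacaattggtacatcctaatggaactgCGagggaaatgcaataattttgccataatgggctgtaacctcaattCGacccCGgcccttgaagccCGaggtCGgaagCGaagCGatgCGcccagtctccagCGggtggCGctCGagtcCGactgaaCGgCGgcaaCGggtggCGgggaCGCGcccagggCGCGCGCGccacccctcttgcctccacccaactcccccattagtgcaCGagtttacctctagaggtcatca
Hoxa9: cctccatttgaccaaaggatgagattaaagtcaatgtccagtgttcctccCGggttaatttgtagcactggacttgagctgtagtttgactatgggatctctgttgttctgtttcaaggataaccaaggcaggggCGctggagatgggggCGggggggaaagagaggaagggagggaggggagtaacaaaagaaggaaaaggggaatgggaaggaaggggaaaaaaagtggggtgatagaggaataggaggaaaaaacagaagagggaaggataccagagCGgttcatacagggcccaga
Hoxa13: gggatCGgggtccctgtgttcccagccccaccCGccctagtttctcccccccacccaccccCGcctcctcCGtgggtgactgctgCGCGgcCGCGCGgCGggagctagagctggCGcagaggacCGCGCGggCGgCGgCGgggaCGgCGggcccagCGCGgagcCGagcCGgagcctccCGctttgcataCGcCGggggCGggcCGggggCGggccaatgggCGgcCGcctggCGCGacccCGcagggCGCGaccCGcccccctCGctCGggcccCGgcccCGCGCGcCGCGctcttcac
Hoxd13: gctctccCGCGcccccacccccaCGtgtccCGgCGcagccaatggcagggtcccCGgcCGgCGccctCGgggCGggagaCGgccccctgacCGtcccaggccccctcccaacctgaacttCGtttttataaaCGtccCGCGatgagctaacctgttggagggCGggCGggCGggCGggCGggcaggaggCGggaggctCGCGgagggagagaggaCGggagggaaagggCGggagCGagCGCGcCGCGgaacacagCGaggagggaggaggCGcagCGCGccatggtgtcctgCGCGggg
Hoxb9 peak: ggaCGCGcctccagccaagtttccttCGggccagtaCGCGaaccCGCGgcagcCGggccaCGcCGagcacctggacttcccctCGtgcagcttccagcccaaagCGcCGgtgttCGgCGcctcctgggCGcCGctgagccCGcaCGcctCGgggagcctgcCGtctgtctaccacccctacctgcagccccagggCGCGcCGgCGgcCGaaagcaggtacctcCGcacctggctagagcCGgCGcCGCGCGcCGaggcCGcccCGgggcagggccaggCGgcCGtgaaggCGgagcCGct

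The clusters also hold microRNAs, whose mature sequences are shown because members with the same seed lay at different distances from the nearest peak. The seed, bases 2 to 8, is in capitals. miR-10a (Hoxb) and miR-10b (Hoxd) share a seed, as do miR-196a (1 copy each in Hoxb and Hoxc) and miR-196b (Hoxa), while miR-615 (Hoxc) has its own.
miR-10a-5p: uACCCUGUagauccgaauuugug
miR-10b-5p: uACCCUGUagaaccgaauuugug
miR-196a-5p: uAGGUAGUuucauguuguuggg
miR-196b-5p: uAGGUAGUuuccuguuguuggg
miR-615-3p: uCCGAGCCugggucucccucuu

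On the chromosomes used, the lists hold 29182, 49587 and 29277 peaks for clones 1, 2 and 3, which cover 0.986%, 1.46% and 0.964% of the genome. No read counts are listed, but fold enrichment and p-value together gave a whole number of ChIP reads at the summit of all but 1 peak per list. That number is used below as the strength of a peak, and can be compared between genes only within a clone. The weakest peaks rest on 13, 12 and 25 reads in clones 1, 2 and 3, so a gene without a peak was below the threshold of its list and not shown to lack the mark. Clone 2 had the most peaks of the 3 clones. The labelled skin origin was checked on fixed markers. Of all protein-coding genes 49.8%, 56.9% and 48.1% had a promoter peak in clones 1, 2 and 3. Of 10 keratinocyte genes 2, 3 and 1 had one. Perp was marked in all 3 clones, at 35, 153 and 70 reads, and Krt14 in clone 1 only, at 42. Krt5, Krt17, Trp63, Cdh1, Epcam and Dsp had no promoter peak in any clone. Of 10 fibroblast genes 7, 7 and 5 had one, with Vim at 184, 240 and 127 reads, while Thy1 and Lum had none in any clone. Among 5 hair follicle genes 2, 3 and 2 were marked, Sox9 at 136, 210 and 73 reads, while Lef1 and Lgr5 were not. Endothelial genes were marked in 0, 0 and 1 of 5, blood genes in 0, 3 and 1 of 5 and melanocyte genes in 2, 2 and 2 of 6. The part of these cell identities in the Hox pattern was not tested.

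A promoter was called marked when a peak lay within 1 kb of any annotated start of the gene. Of the 38 Hox genes, 15, 19 and 12 were marked in clones 1, 2 and 3, or 39.5%, 50% and 31.6%, against 49.8%, 56.9% and 48.1% of all protein-coding genes. All 3 clones had a peak at 10 Hox promoters, or 26.3% of the genes against a background of 46.5%. These 10 were Hoxa4, Hoxa5, Hoxb3, Hoxb6, Hoxb7, Hoxb9, Hoxc4, Hoxc5, Hoxc6 and Hoxc8. With a −log10 q of at least 5 required of a peak the count was 7, since Hoxb3, Hoxb6 and Hoxb7 each lost their peak in 1 clone. A further 9 genes were marked in some clones only, namely Hoxa2, Hoxa3, Hoxa7, Hoxb2, Hoxb4, Hoxb5, Hoxb8, Hoxc9 and Hoxc10. The other 19 genes, or 50% against 42.6% of all protein-coding genes, had no peak in any clone: Hoxa6, Hoxa9, Hoxa10, Hoxa11, Hoxa13, Hoxb1, Hoxb13, Hoxc11, Hoxc12, Hoxc13 and the 9 Hoxd genes Hoxd1, Hoxd3, Hoxd4, Hoxd8, Hoxd9, Hoxd10, Hoxd11, Hoxd12 and Hoxd13. Every gene marked in clone 1 or clone 3 was marked in clone 2 as well. This held for nearly all protein-coding genes too, of which 56.9% were marked in clone 2 and 42.6% in no clone. The clones form 1 condition, so these shares are descriptions and were not tested.

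**Figure D1:**
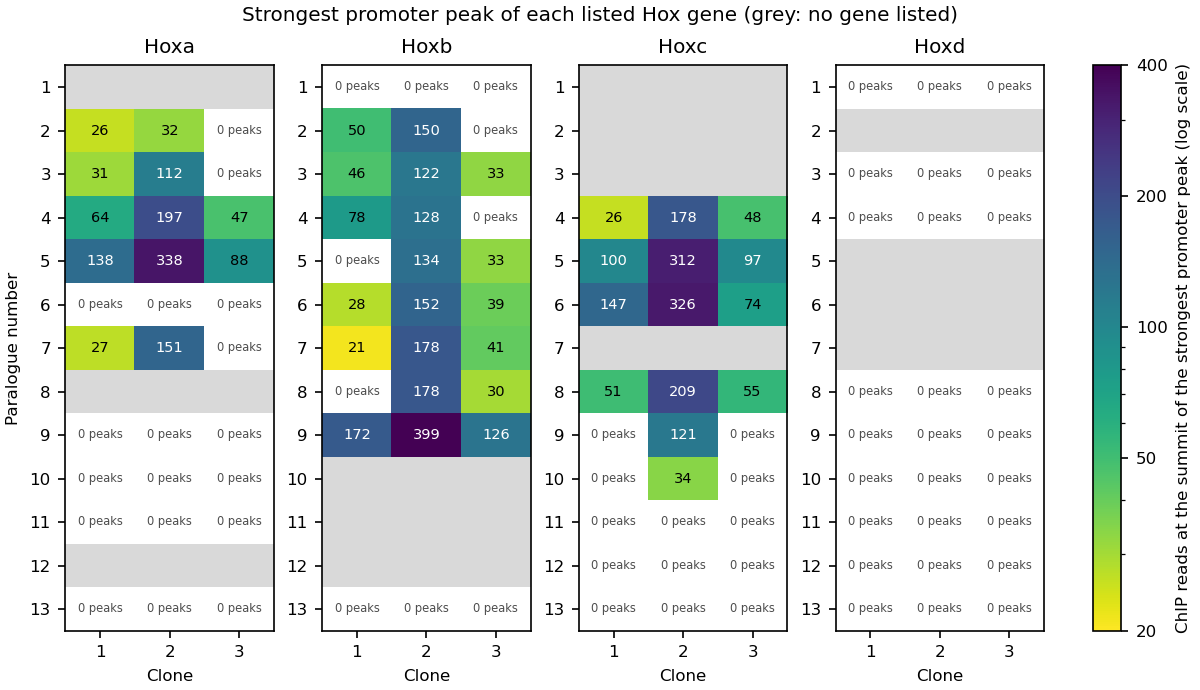
ChIP reads at the summit of the strongest promoter peak of each Hox gene (colour, log scale, and number in the cell), by paralogue number (rows), clone (columns) and cluster (panels); white cells had no peak and grey cells have no gene listed. Marked genes fall between paralogue numbers 2 and 10, and all 9 Hoxd genes are empty in the 3 clones.

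By paralogue number, the marked genes ran from 2 to 10, and in clones 1 and 3 from 2 to 9 and from 3 to 9. Neither of the 2 genes of group 1 examined was marked. In group 2 both genes were marked in clones 1 and 2 and neither in clone 3. Group 3 had 2, 2 and 1 of its 3 genes marked, and group 4 had 3, 3 and 2 of 4. Group 5 had 2, 3 and 3 of its 3 genes marked in clones 1, 2 and 3, and group 6 had 2 of 3 in each clone. Both genes of group 7 examined were marked in clones 1 and 2 and 1 of them in clone 3, and group 8 had 1, 2 and 2 of 3. In group 9, Hoxb9 was marked in all clones and Hoxc9 only in clone 2, while Hoxa9 and Hoxd9 were empty. Group 10 had a single peak, at Hoxc10 in clone 2, and groups 11, 12 and 13 (3, 2 and 4 genes) had none. Paralogues with the same number thus differed between clusters: in group 4, Hoxa4 and Hoxc4 were marked in all clones and Hoxd4 in none.

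Hoxa (chr6:52162417-52260880 from the first to the last gene examined) was marked at its low-numbered end and empty from paralogue 9 upwards. Hoxa5, a gene of lung, trunk and skin patterning, had 138, 338 and 88 ChIP reads in clones 1, 2 and 3, and Hoxa4 next to it had 64, 197 and 47. At Hoxa5 the fold enrichment over the local background was 19.8, 48.6 and 7.03, where the control behind the background of clone 2 is not known, and the reads were at the 72.1, 83.7 and 54.9 percentile of all marked promoters of the same clone. Its peak was 996, 1788 and 557 bp wide, and in clones 1 and 3 it lay within the gene and ended 0.177 and 0.202 kb short of the nearest start. Among the Hoxa genes examined, Hoxa5 had the strongest promoter peak in each of the 3 clones. Hoxa2, which patterns the hindbrain and the second branchial arch, is the lowest-numbered Hoxa gene examined and had 26 and 32 reads in clones 1 and 2 and no promoter peak in clone 3. This peak lay outside the gene, 0.725 and 0.812 kb from its start, and covered the start of the non-coding gene Hoxaas2. Marked chromatin did not end at Hoxa2, since 2, 5 and 2 peaks of clones 1, 2 and 3 lay in the 100 kb beyond it. Its 26 reads have a 95% Poisson interval of 17.0 to 38.1, which covers counting error only. Hoxa3, a gene of thymus and neck development, had 31 and 112 reads in clones 1 and 2 and no promoter peak in clone 3, although 4 peaks of clone 3 lay over its long annotated body. The peaks with 31 and 112 reads were at the outer end of that body, between the Hoxa6 and Hoxa7 genes on the chromosome. Hoxa7 stands at the high end of the run, with 27 reads in clone 1, 151 in clone 2 and no peak in clone 3. These reads were at its outermost start, and the 151 were above the reads of Hoxa2 and Hoxa3 in clone 2. Within 1 kb of the start of its principal transcript clone 1 had no peak. The strongest peak of clone 2 there had 45 reads. Among the strongest promoter peaks of the Hoxa genes examined, the widest were at Hoxa4 in clone 1 (1675 bp) and at Hoxa3 in clone 2 (2821 bp).

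Hoxa6 had no promoter peak in any clone although it lies between Hoxa5 and Hoxa7. The nearest peak was 3.84, 2.4 and 4.34 kb away in clones 1, 2 and 3. Beyond Hoxa7 the cluster was empty. The start of Hoxa9, a regulator of blood stem cells and limb patterning, was 4.47, 4.30 and 21.8 kb from the nearest peak. The distances at Hoxa13, which is used in the distal limb and the urogenital tract, were 39.1, 38.9 and 56.4 kb. No peak followed within 100 kb beyond Hoxa13, and the empty stretch around Hoxa10 measured 400, 400 and 435 kb. Peaks covered 9.67%, 12.003% and 1.75% of the Hoxa cluster, 7.81% ± 5.38 (SD, n = 3 clones). Clone 3 was the lowest and held 4 peaks there, against 12 in clone 1 and 12 in clone 2.

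**Figure D2:**
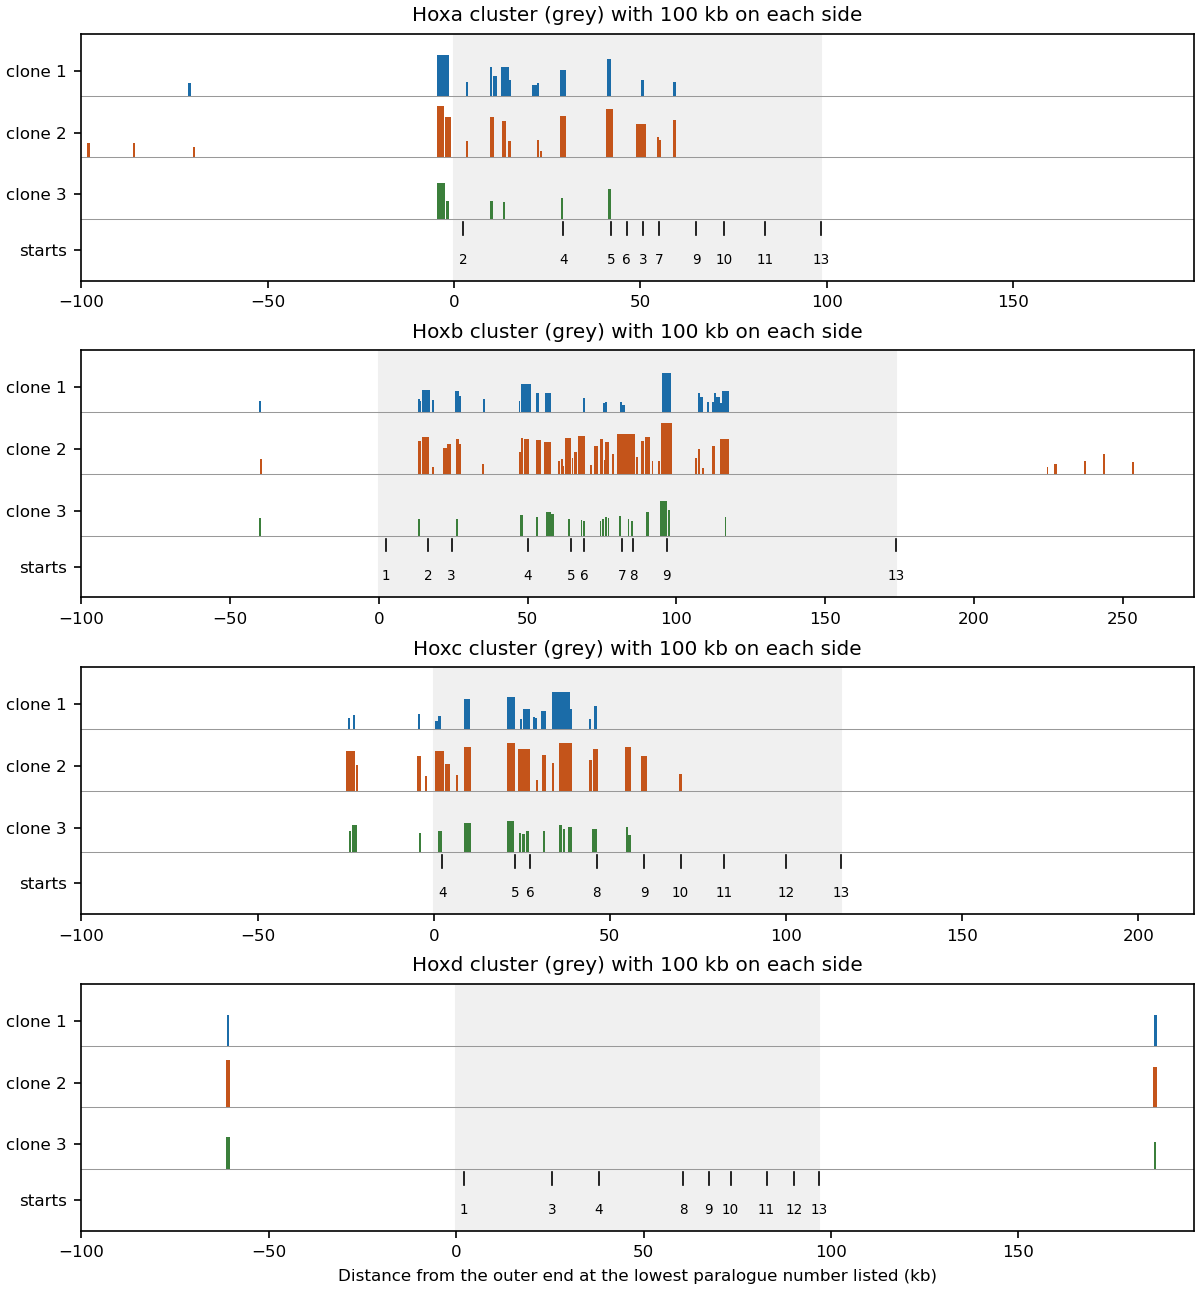
Peaks of clones 1 to 3 along each Hox cluster, as distance in kb from the outer end of the cluster at its lowest paralogue number; bar width is peak width (at least 0.6 kb for visibility), bar height is the log of ChIP reads at the summit, ticks mark 1 start of a principal transcript per gene with its paralogue number, and grey shows the cluster. Peaks end between Hoxa7 and Hoxa9, leave Hoxb13 and Hoxb1 bare, end by Hoxc10, and are absent from Hoxd.

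Hoxb (chr11:96194316-96368256) had the longest run of marked genes, from Hoxb2 to Hoxb9. Hoxb9, a gene of thoracic identity, had 172, 399 and 126 reads in clones 1, 2 and 3. By reads it was the strongest of the 38 Hox promoters in each, at the 84.9, 95.4 and 81.7 percentile of marked promoters. Its fold enrichment was 14.8, 43.0 and 13.3. By fold it was the highest in clone 3 only. Hoxc6 (21.1) and Hoxa5 (19.8) were above it in clone 1, and Hoxc5 (57.8), Hoxa5 (48.6) and Hoxc6 (46.9) in clone 2. The peak spanned 3187, 4003 and 2504 bp, and covers the 300 bases printed above. At the other end of the run, Hoxb2, a gene of hindbrain segments, had 50 and 150 reads in clones 1 and 2 and no promoter peak in clone 3, whose nearest peak was 2.94 kb away. Between them the clones differed gene by gene. Hoxb4, which acts in blood progenitors, had 78 and 128 reads in clones 1 and 2 and no promoter peak in clone 3, though 26.9% of its body was under a peak there, against 77.3% and 79.5% in the other clones. Hoxb5 was not marked in clone 1 and had 134 and 33 reads in clones 2 and 3. Hoxb8 was likewise empty in clone 1, with 178 and 30 reads in clones 2 and 3. In clone 2 the peak of Hoxb8 was the same 6032 bp peak that covered Hoxb7, the widest promoter peak of the Hox genes. Its 178 reads are counted for both genes. They are the reads at its summit, 297 bp from a Hoxb7 start and 4195 bp from the nearest Hoxb8 start. The other promoter peak of Hoxb8 in clone 2 had 34 reads.

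Hoxb3, Hoxb6 and Hoxb7 were marked in all clones, at lower levels than Hoxb9. Hoxb3 had 46, 122 and 33 reads, at an inner start, since its outermost start was unmarked in the 3 clones. Hoxb6 had 28, 152 and 39 reads and Hoxb7 had 21, 178 and 41. The Hoxb6 reads of clones 1 and 2 were at its inner start, where clone 3 had 31, and the 39 were at its outer start. Clone 2 was the highest for each of these 3 genes. Hoxb4 carried the widest promoter peak of the cluster in clone 1 (3329 bp) and Hoxb9 in clone 3. Hoxb1, a gene of the hindbrain, was 10.8, 10.7 and 10.7 kb from the nearest peak, and the empty stretch that holds it measured 53.0, 52.4 and 53.0 kb. Hoxb13, a gene of the tail end and the prostate, was 56.2, 50.7 and 57.2 kb from a peak, in an empty stretch of 174, 107 and 176 kb. Between Hoxb13 and Hoxb9 a region over the start of the long non-coding RNA Gm53 (chr11:96250546-96253523) was marked in every clone, with 48, 129 and 40 reads. It lies 17.9 kb before the start of Hoxb9. Peaks covered 15.0005%, 26.97% and 7.94% of the cluster, 16.6% ± 9.62 (SD, n = 3).

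Hoxc (chr15:102921103-103036852) was marked from Hoxc4 to Hoxc8 in all clones and up to Hoxc10 in clone 2. Hoxc6, a gene of thoracic and mammary development, had 147, 326 and 74 reads in clones 1, 2 and 3, with a peak of 5203, 3828 and 851 bp. Hoxc5 had 100, 312 and 97 reads, all from a peak over Mir615, a microRNA gene within the Hoxc5 gene, which ended 0.079, 0.079 and 0.178 kb from the nearest Hoxc5 start. By the strongest peak at any start, Hoxc6 was the strongest of the cluster in clones 1 and 2 and Hoxc5 in clone 3. These Hoxc6 peaks lay at outer starts. Within 1 kb of the start of its principal transcript Hoxc6 had 41, 207 and 48 reads, fewer than Hoxc5 in each clone. Hoxc4, at the low end, had 26, 178 and 48 reads beside its inner start, and its outermost start was unmarked in every clone. Hoxc8, a gene of thoracic vertebrae and motor neurons, had 51, 209 and 55 reads. Clones 1 and 3 had similar read numbers at Hoxc5 and Hoxc8, and clone 2 was higher at each of these genes. 

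Clone 2 differed at the high end of Hoxc. Hoxc9 had 121 reads in clone 2 and no promoter peak in clones 1 and 3, where the nearest peaks were 13.5 and 4.11 kb away. In clone 3, 2 peaks lay over the Hoxc9 body. Hoxc10, a gene of lumbar and hindlimb identity, had 34 reads in clone 2 only, at the 6.94 percentile of marked promoters in that clone. Hoxc11, Hoxc12 and Hoxc13 were empty. The distance to the nearest peak at Hoxc13, which is required for hair shaft and nail formation, was 69.4, 45.3 and 60.04 kb. The empty stretch around Hoxc12 measured 268, 233 and 257 kb. Peaks covered 14.3%, 20.7% and 10.0% of the cluster, 14.999% ± 5.40 (SD, n = 3). The control background at the summits of chromosome 15, on which Hoxc lies, had a median 1.35, 1.35 and 1.43 times that of the other autosomes, against 1.00 for chromosomes 2, 6 and 11 in each clone. The part of this in the read numbers of Hoxc was not tested.

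Hoxd (chr2:74668310-74765142) held no peak in any clone, so 0% of its 96.8 kb was marked in each. The member nearest to a peak was Hoxd1, a gene of the early limb and nervous system, at 62.8, 62.4 and 62.5 kb, and Hoxd13, a gene of the digits, was 89.3, 89.1 and 89.4 kb from one. The window with 100 kb on each side held 2 peaks in each clone, at the start of Lnpk beyond Hoxd13 (89, 188 and 71 reads) and at the start of Mtx2 beyond Hoxd1 (91, 299 and 102 reads). Between them lay 247, 246 and 246 kb without a peak. These neighbours, a gene of endoplasmic reticulum shape and one of the mitochondrial outer membrane, were marked in every clone. Evx2, the homeobox gene next to Hoxd13, and Evx1, next to Hoxa13, had no peak in any clone.

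Of 79 other annotated genes in the 4 windows, 13 were marked at the promoter in every clone and 57 in no clone. These are not counts of separate peaks, since neighbours such as Lnpk and 4930445N08Rik shared the same peak. Of the 15 named non-coding genes of the clusters, 6, 7 and 5 had a promoter peak in clones 1, 2 and 3, with 4 in all clones and 8 in none. Most of the 79 were not protein-coding, and for neither count was a share over all non-coding genes taken. Hoxb3os had 26, 150 and 34 reads, Hoxaas3 had 81, 134 and 35, and Mir615 had 100, 312 and 97. Hotair, an RNA of the Hoxc cluster, and Hottip, of the Hoxa cluster, which act on chromatin, had no peak in any clone, and neither did Haglr and Hoxa11os. Mature miR-10a lay 0.073, 0.526 and 1.98 kb from the nearest peak, that of Hoxb4 in clones 1 and 2, while miR-10b, with the same seed, was 99.7, 99.3 and 99.3 kb from one in Hoxd. The miR-196 copies lay outside peaks as well. The distances were 4.21, 3.31 and 5.04 kb for the Hoxb copy, 17.1, 2.90 and 7.76 kb for the Hoxc copy and 8.41, 8.24 and 25.7 kb for miR-196b. Only miR-615 was itself under a peak in the 3 clones.

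Marked Hox promoters were mostly weak within their clone. Each gene's strongest promoter peak was ranked by its reads among the strongest promoter peaks of all protein-coding genes with one in the same clone, of which there were 10930, 12480 and 10557. The median percentile of the marked Hox genes was 18.95, 32.9 and 13.1 in clones 1, 2 and 3, 21.6 ± 10.2 (SD, n = 3), where 50 is the middle of all marked promoters. Of the marked Hox genes 11 of 15, 15 of 19 and 9 of 12 lay below it. Reads ranged from 21 to 172 with a median of 50 in clone 1, from 32 to 399 with a median of 152 in clone 2, and from 30 to 126 with a median of 47.5 in clone 3. The medians over all marked promoters were 98, 213 and 83 reads. Whether fewer cells or alleles carried the mark, or each carried less, cannot be told apart in bulk chromatin. By width the same peaks ranked higher, with a median percentile of 36.7, 86.8 and 27.3, and 12 of 15, 16 of 19 and 9 of 12 genes ranked higher by width than by reads. Of the marked Hox promoters 7 of 15, 15 of 19 and 4 of 12 in clones 1, 2 and 3 were wider than the median marked promoter.

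**Figure D3:**
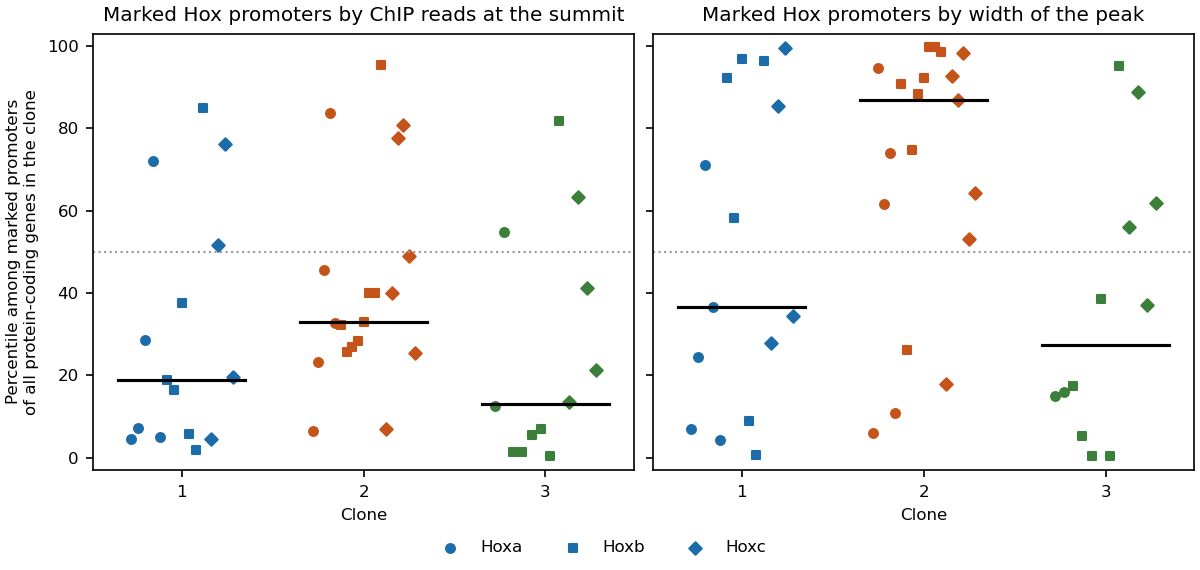
Percentile of each marked Hox promoter among the marked promoters of all protein-coding genes in the same clone, by ChIP reads at the summit (left) and by peak width (right); points are genes, shapes are clusters, black lines are medians and the dotted line is 50. The medians by reads are 18.95, 32.9 and 13.1 and those by width 36.7, 86.8 and 27.3.

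Across the clusters with their flanks, the merged lists held 81 regions, and 28 of them (34.6%) had a peak from each clone, against 27.3% of 57727 regions genome-wide. There were 5 shared regions in the Hoxa window, 12 in Hoxb, 9 in Hoxc and 2 in Hoxd. Of the 38 regions found in a single clone, 31 were of clone 2, 6 of clone 1 and 1 of clone 3. Regions of a single clone were 46.9% of those in the windows and 58.7% genome-wide, and clone 2 held 81.6% of them in the windows and 74.5% genome-wide, its list being the longest. At the 22 shared regions inside the clusters clone 2 had a median of 3.06 times the reads of clone 1, against 2.08 times at all 15732 shared regions, and 20 of the 22 were above that median. The log2 ratios ran from 0.73 to 3.08. The median ratio was 2.38 in Hoxa, 3.05 in Hoxb and 3.51 in Hoxc, and 1.89 at all shared regions of chromosome 15, which holds Hoxc. For clone 3 against clone 1 the median ratio was 1.00 in the clusters and 1.00 overall. Within it, the 4 Hoxa regions had a median of 0.532 and none was above the overall median, whereas Hoxb and Hoxc had medians of 1.11 and 1.08. All shared regions of chromosome 15 had a median of 1.08 as well. No test was made between clones, which are single lists.

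**Figure D4:**
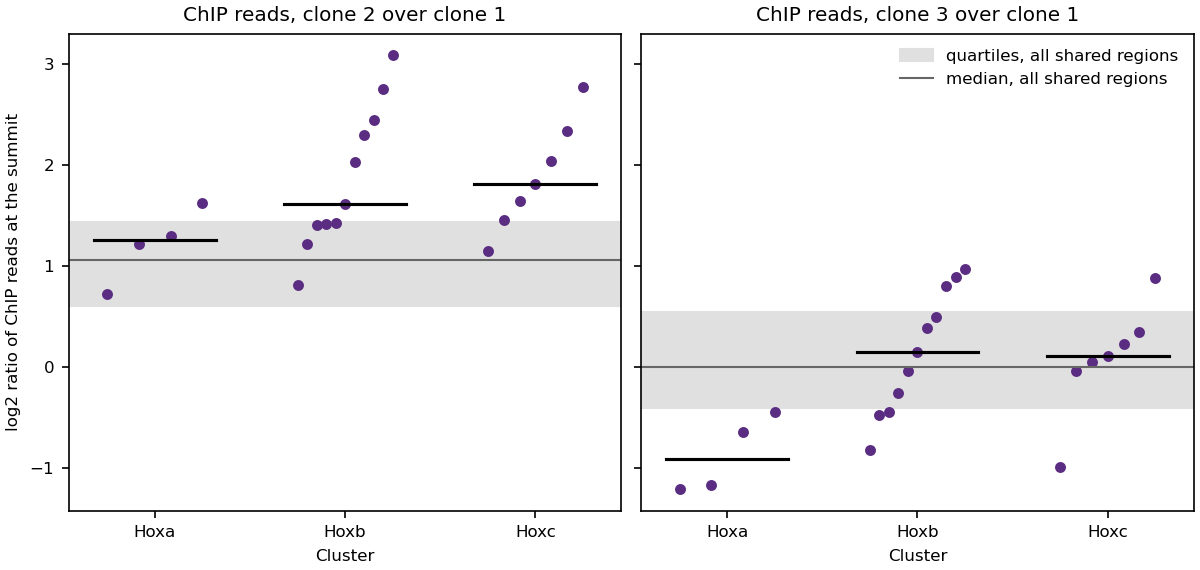
log2 ratio of ChIP reads at the summit between clones at the 22 regions shared by all clones inside the Hox clusters; points are regions, black lines cluster medians, and the grey line and band the median and quartiles of all 15732 shared regions. In the left panel 20 of 22 regions lie above the grey line, and in the right panel all 4 Hoxa regions lie below it.

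Joining neighbouring peaks, with a largest gap between 12 and 13 kb, made large domains of Hoxb and Hoxc. The largest Hoxb domain had 26092, 46920 and 12273 bases under peaks in clones 1, 2 and 3 and ranked 13, 17 and 29 among 14560, 18280 and 16371 domains. It ran from the Gm53 region to the far side of Hoxb2 in clones 1 and 2, over 104 kb, and over 50.5 kb in clone 3. The Hoxc domain had 16972, 25315 and 11953 bases and ranked 39, 104 and 36. The largest Hoxa domain had 12709, 15395 and 2939 bases and ranked 86, 272 and 1964. The other peaks of clone 3 in Hoxa formed a domain of 1099 bases with a rank of 8843. These Hoxc and largest Hoxa domains ran past the low-numbered end of the clusters as examined. Inside the clusters, peaks covered 16516, 23986 and 11581 bases of Hoxc and 9525, 11819 and 1719 bases of Hoxa. Averaged over clones, the largest Hox domain held 28428 ± 17441 bases (SD, n = 3).

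Where it could be counted, the CpG content of marked and of empty Hox promoters overlapped. RefSeq promoter windows were found for 22 of the 38 genes. Only 2 of the 10 genes marked in all clones were among them, too few to say whether CpG content differs. The 15 that were empty in all clones had 4 to 45 CpG with a median of 20. The 5 marked in some clones had 9 to 20 with a median of 13, and the 2 marked in all clones, Hoxc4 and Hoxa5, had 9 and 29. The median over all 27025 genes of the table was 8. Among the empty genes, Hoxa13 and Hoxd13 had the most CpG, 45 and 37, and Hoxa9 and Hoxd4 the fewest, 4 each. Where a gene had more than 1 window, here and over all genes, the window with the most CpG was counted, which for Hoxd11 was 25 against 4 at its other window and for Hoxa10 was 21 against 12. These windows need not lie at the start that was marked. The 300 bases around the clone 2 summits of the 22 shared Hox regions held a median of 20.5 CpG, against 19 at all shared regions. The AP-1 motif TGANTCA and the Pbx-Hox motif TGATTNAT, searched on both strands, were in 0 of these 22 windows and in 7.37% and 1.17% of the 15732 windows of all shared regions, which says only that these letters are not in these windows.

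**Figure D5:**
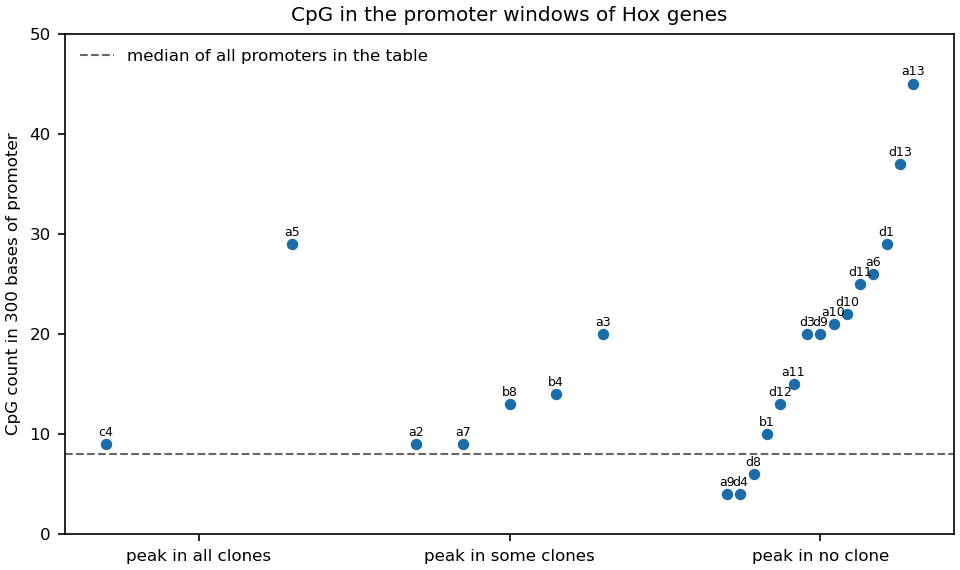
CpG count in the 300-base promoter window of the 22 Hox genes with a RefSeq window, by whether the gene had a promoter peak in all, some or no clones; points are genes, named by cluster letter and paralogue number, and the dashed line is the median of all promoters in the table (8). Empty genes span 4 to 45 CpG.

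Genes that act with or on the Hox genes were described by lists, to be read against the 49.8%, 56.9% and 48.1% of all protein-coding genes marked in clones 1, 2 and 3. Of 9 genes of the Pbx, Meis and Pknox families, the homeodomain partners of Hox proteins, 7, 9 and 6 were marked in clones 1, 2 and 3. Pknox1 had 184, 367 and 116 reads and Pbx3 had 160, 279 and 140, and Meis3 had no peak in clones 1 and 3. Of 17 Polycomb genes, 17, 17 and 15 were marked, led by Eed with 188, 391 and 155 reads, and Ezh1 and Cbx7 lacked a peak in clone 3. All 11 genes of the trithorax and Ctcf list were marked in every clone, with Ctcf at 279, 419 and 190. The 6 Cdx and ParaHox genes, relatives and regulators of the Hox genes in the embryo, had no peak in any clone. Among 12 genes of head position 5, 6 and 4 were marked, Otx1 at 116, 235 and 77 reads and Dlx1 at 121, 204 and 83, while Otx2 and Alx1 had no peak in any clone. Among 12 genes of trunk and limb position 4, 6 and 2 were marked. Tbx18 had 63, 287 and 69 reads and Shox2 74, 167 and 53, both in all clones, and Tbx4, Tbx5, Pitx1, En1 and Pax1 had none. Tbx15 had 47 and 109 reads in clones 1 and 2 and no peak in clone 3, and Pax9 had 43 reads in clone 1 only.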

How the data were processed

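H3K27-Ac ChIP-seq peak lists of 3 clones were used, 1 per clone. The 4 H3K27-Ac and 3 IgG libraries were assigned by their labels. No IgG library of clone 2 was used here, and which control the list of clone 2 was called against is not given in the sources used here, so its fold values may rest on another kind of background. The authors aligned the reads with Bowtie2 to GRCm38, and MACS2 2.1.1 is named in the submitters' processing notes. Peak names of clones 1 and 2 carry a tag for filtering of allelic mapping bias, which those of clone 3 lack. The deposited lists give each summit's fold enrichment, a ratio of ChIP pileup to local background with 1 added to each, and its −log10 p-value and q-value.

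ChIP reads and background at each summit were solved from fold and p with Python 3.11.15, numpy 2.4.6, pandas 2.3.3 and scipy 1.17.1, a step tested on simulated data, and figures were drawn with matplotlib 3.10.9. It left 1 peak per list unsolved. Peaks on other sequences (5, 21 and 3) were left out. Genes and starts were those of GENCODE M21. A promoter peak lay within 1 kb of any start; cluster windows added 100 kb on each side; regions were shared at an overlap of 1 bp in the 3 lists. Coordinates count from 1.

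The members and gene lists were chosen with earlier results of these data known. Every member was to be named, with full values for the ends of each run of marked genes, the strongest, the widest and those that differed between clones, and list genes as counts with examples. 1 further Hox gene is not reported here. There is 1 condition and no group test; spread is the SD over clones, whose number limits the precision. Library depth is not listed. Alternatives were other windows, starts, thresholds, equal peak numbers, flanks, joining distances and measures of strength, and leaving out each clone.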

Additional observations from a re-analysis of the deposited data

How the results depend on the processing

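No paired analysis was possible because the IgG libraries, which share replicate numbers with the H3K27-Ac libraries, have no peak list of their own and all clones are 1 condition. Of 65 recomputed values, 59 stayed within the SD over clones, or within 1.5 times for a count. This is a wide margin, since the clones were unequal. The largest domain held 18035 bases on average when joined within 5 kb, which is within the SD of 28428 ± 17441. Promoters with a peak in all clones fell from 10 to 3 when only peaks over the start base counted. They ranged from 10 to 15 when a clone was left out, which by construction cannot lower this count. Under starts of principal transcripts, an alternative chosen after seeing the data, there were 9, with 19 promoters in no clone. Shared regions fell from 28 to 15 at a −log10 q of at least 5 and to 18 when the summits of all 3 clones had to lie within 250 bp. By peak width the median percentile was 50.3 in place of 21.6. With 100 kb on each side the share under peaks was 6.32% for Hoxc and 0.630% for Hoxd. The cause was not tested, except that a wider window dilutes the share by construction. The 19 empty promoters stayed between 19 and 22 under the alternatives run, of which only the window of 2 kb could lower the count. It gave 19. Clone 2 decided most single-clone regions, and sites below 13, 12 and 25 reads could not be listed in clones 1, 2 and 3.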
